A study of Mus musculus with 6 samples.

Results

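The genes described here are 40 genes of the Polycomb, trithorax and DNA methylation systems, listed by symbol with earlier results of these data known: *Ezh1*, *Ezh2*, *Eed*, *Suz12*, *Rbbp4*, *Rbbp7*, *Jarid2*, *Mtf2*, *Phf1*, *Phf19*, *Ring1*, *Rnf2*, *Pcgf1*, *Pcgf2*, *Pcgf3*, *Pcgf5*, *Pcgf6*, *Cbx2*, *Cbx6*, *Cbx7*, *Cbx8*, *Phc1*, *Phc2*, *Phc3*, *Rybp*, *Kdm2b*, *Kdm6b*, *Ash1l*, *Ash2l*, *Wdr5*, *Rbbp5*, *Dpy30*, *Men1*, *Dnmt1*, *Dnmt3a*, *Dnmt3b*, *Uhrf1*, *Tet1*, *Tet2* and *Tet3*. All 40 were found among the 23366 genes of the count tables, and all 40 passed the filter on low counts that left 12501 genes for testing. RNA-sequencing was carried out on EpCAM+ epithelial cells sorted from the mouse small intestine at embryonic day 13.5, 500 cells per library, and 3 libraries came from embryos of the genotype Shh-cre-egfp:Tcf7l1 lox/lox (mutant) and 3 from wild type embryos. In the mutants, Cre recombinase is produced from the *Shh* locus and removes *Tcf7l1*, which encodes a DNA-binding transcription factor of the WNT pathway, from the gut epithelium. Embryos with Cre and intact *Tcf7l1* are not among these samples, so the effect of the Cre allele and that of the deletion cannot be told apart.

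Polycomb repressive complex 2 (PRC2) methylates lysine 27 of histone H3 (H3K27), and Polycomb repressive complex 1 (PRC1) attaches ubiquitin to histone H2A and compacts chromatin. Trithorax group proteins counteract Polycomb silencing, and among them the COMPASS complexes methylate lysine 4 of histone H3. DNA methyltransferases place methyl groups on cytosines of CpG pairs and TET enzymes oxidise them, and in the intestine both systems are known for maintaining progenitor cells and keeping genes of other lineages silent.

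*Tcf7l1* fell from 438 ± 64.1 to 49.2 ± 21.1 normalized counts (mean ± SD, n = 3 per group), with every mutant library below every wild type library. *Shh*, the locus that carries Cre, fell from 481 ± 65.8 to 198 ± 22.6. Epithelial markers (*Epcam*, *Cdh1*, *Cldn7*, *Krt8*, *Krt18*) had a summed level (CPM, counts scaled to the TMM-adjusted library size) of 6491 to 7085 in the wild type group and 6704 to 6914 in the mutant group. Scaled to the library total alone, the sums were 6872 to 7138 and 6498 to 6620, so the groups no longer overlapped and the mutant was lower. The single markers moved in opposite directions without overlap. *Krt18* (log2 fold change -0.54, adjusted p = 2.7e-05), *Cdh1* (-0.57, adjusted p = 0.001) and *Krt8* (-0.32, adjusted p = 0.001) fell, while *Epcam* (0.25, adjusted p = 0.013) and *Cldn7* (0.24, adjusted p = 0.0091) rose by edgeR's quasi-likelihood test. The part of these shifts in the results below was not tested. All 3 wild type libraries held reads of Y-linked *Ddx3y* and none of *Xist*, and all 3 mutant libraries the reverse, so sex and genotype cannot be told apart in these libraries. Mesenchymal markers summed to 62.7 to 73.3 CPM in the wild type group and 45.1 to 49.6 CPM in the mutant group. Nearly all of it was *Vim*, which fell (log2 fold change -0.46, adjusted p = 0.0049). *Col3a1* fell from 45, 40 and 11 reads to 8, 6 and 4 (-2.21, adjusted p = 0.026). *Pdgfra*, not tested, had 23, 6 and 21 wild type reads against 0, 0 and 1. *Col1a1* (0 to 18 counts per library) and *Col1a2* overlapped. In blood and endothelium, 3 of 5 markers each had no count. The blood sum, mostly *Hbb-y* (-2.07, adjusted p = 0.028), was lower in the mutant group (0.212 to 0.51 CPM against 1.02 to 1.43). Endothelial sums overlapped. The part of this RNA in the results below was not tested. Wild type 3 stood apart from wild type 1 and 2 (chi-square per gene of 16.8 and 18.7, against 8.82 between those 2 libraries). It was also the wild type library nearest the mutant libraries (29.5 to 34, against 41.4 to 57.5 for wild type 1 and 2). Without wild type 3, 4.04% of all genes were called higher and 6.79% lower, beside 2.78% and 5.83% with all 6 libraries. Leaving it out thus raised calls over the whole table. Results that rest on wild type 3 are given with and without it.

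Transcript levels of these genes spanned a wide range in the wild type epithelium, compared here per length as RPKM, the reads scaled to library depth and to the length of the longest transcript. *Rbbp7*, a histone-binding subunit of PRC2 and other complexes, stood highest at 666 ± 54.8 RPKM (SD, n = 3). It was followed by *Dpy30* (245 ± 28.0) and *Ash2l* (107 ± 5.63), which encode core subunits shared by the COMPASS complexes. The next levels were those of *Rnf2* (88.0 ± 5.80), *Eed* (87.6 ± 6.08), *Rbbp4* (64.2 ± 3.91), *Ezh2* (56.8 ± 2.60) and *Pcgf6* (50.3 ± 3.35), and those of *Rnf2* and *Eed* differed by less than their spread. *Uhrf1*, *Pcgf5*, *Wdr5*, *Men1* and *Phc2* lay together between 21.8 and 26.4 RPKM. The lowest levels were those of *Phf1* (0.449 ± 0.181), *Tet1* (0.596 ± 0.112), *Phf19* (0.608 ± 0.194) and *Phc3* (0.725 ± 0.251), which also lay within each other's spread.

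**Figure D1:**
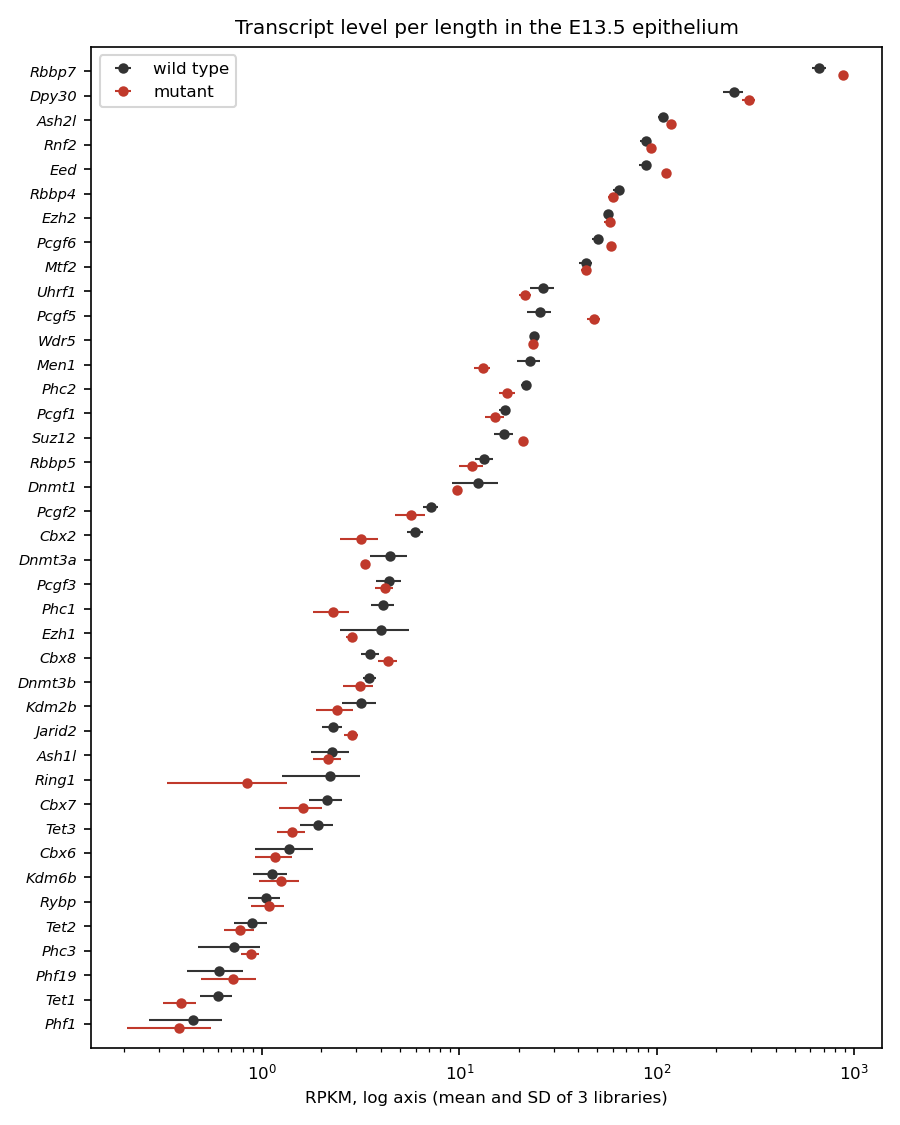
Transcript level of the 40 genes in RPKM on a log axis, ordered by the wild type mean, with black points for wild type and red points for mutant (mean, bars SD, n = 3). *Rbbp7* is highest at 666 and *Phf1* lowest at 0.449 RPKM in wild type, and the bars of the groups are clearly apart for *Pcgf5*, *Men1*, *Cbx2* and *Phc1*. They are also apart for other genes, among them *Rbbp7* and *Eed*.

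In several pairs of related genes, one partner was far more abundant. Per length, *Ezh2* was 14.9-fold above *Ezh1*, *Rnf2* 43.2-fold above *Ring1* and *Mtf2* 102-fold above *Phf1* in wild type libraries, while *Dnmt3a* and *Dnmt3b* stood at a ratio of 1.26. In mutant libraries these ratios were 20.3, 131, 123 and 1.08. The log2 ratio of *Rbbp4* to *Rbbp7* was -3.47, -3.20 and -3.45 in wild type 1 to 3 and -3.80, -3.89 and -3.94 in mutant 1 to 3. It was the 1 ratio of the 8 compared whose groups did not overlap. Its difference gave p = 0.1 in an exact 2-sided permutation test, the smallest possible with 3 libraries against 3, and an adjusted p of 0.457 over the 8 pairs, so none passed.

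Between genotypes, 4 of the 40 genes were called differentially expressed, where a call requires an adjusted p below 0.01, a log2 change of 0.5 or more in either direction, and 50 or more normalized counts on average (edgeR's quasi-likelihood test, Benjamini-Hochberg adjustment over all genes tested). *Pcgf5* was called higher in the mutant, 1 of 40 genes beside 2.78% of all genes tested. *Cbx2*, *Phc1* and *Men1* were called lower, 3 of 40 beside 5.83% of all genes. At an adjusted p under 0.05 with any fold, 6 genes were higher (13.6% of all genes) and 7 lower (15.1% of all genes). Every mutant library lay above every wild type library for 8 of the 40 genes (20.8% of all genes) and below for 7 (22.2% of all genes). With all 6 libraries, each of these counts is near its background. Their median log2 fold change was -0.13, beside -0.04 over all genes. The count called lower depended on single libraries. Without wild type 3, 7 of the 40 genes (17.5%) were called lower, beside 6.79% of all genes in that fit, so the share was then above its background. Without wild type 1 or without mutant 3, 1 of the 40 was called lower, beside 3.18% and 4.24% of all genes.

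**Figure D2:**
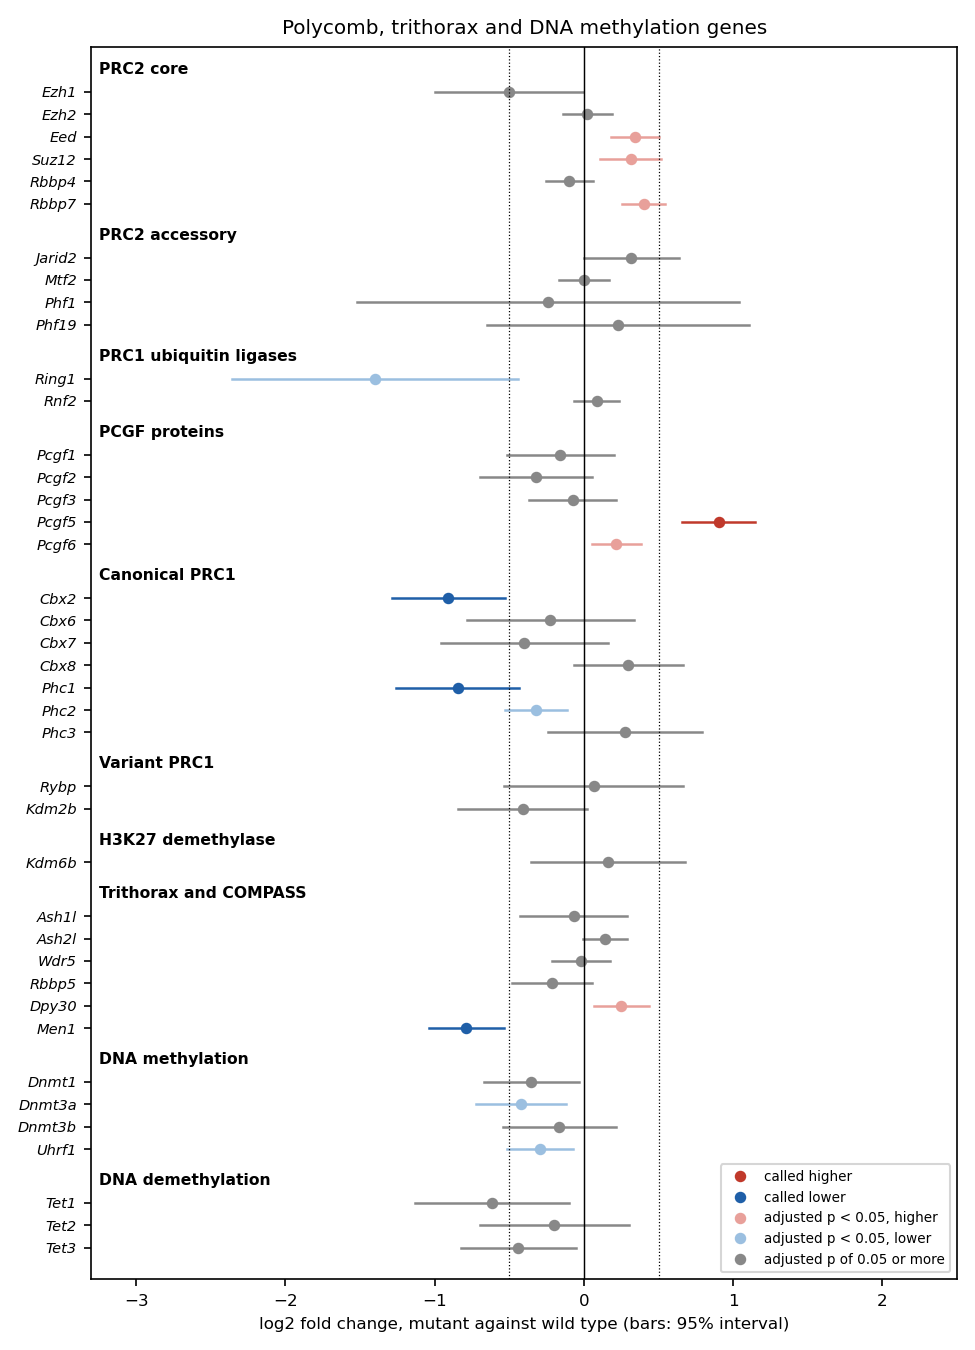
Log2 fold change of mutant against wild type for each of the 40 genes, grouped by complex, with 95% intervals from edgeR's quasi-likelihood fit. Dotted lines mark the minimum fold of a call, and the colours mark *Pcgf5* as called higher, *Cbx2*, *Phc1* and *Men1* as called lower and 9 further genes with an adjusted p under 0.05.

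Upstream sequences of 34 of the 40 genes were matched in RefSeq (GRCm38.p6), as 53 windows of the 250 bases before an annotated start. Entries for *Ash1l*, *Ash2l*, *Cbx2*, *Kdm6b*, *Pcgf1* and *Rybp* were not matched. The windows below belong to the 3 called genes with an entry and to *Suz12*, and for genes with several starts the window with the most CpG pairs is shown. Capitals mark the core letters that TCF/LEF factors such as TCF7L1 bind (CTTTGAT or its reverse complement ATCAAAG) in *Phc1* and an E2F motif in *Suz12*, each read on both strands.
Pcgf5, chr19:36409498-36409747, plus strand: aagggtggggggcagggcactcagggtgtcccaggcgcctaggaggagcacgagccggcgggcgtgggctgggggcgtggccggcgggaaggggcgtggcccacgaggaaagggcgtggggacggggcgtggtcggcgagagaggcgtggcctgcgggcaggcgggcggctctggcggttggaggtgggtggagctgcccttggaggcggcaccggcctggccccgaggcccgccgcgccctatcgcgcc
Phc1, chr6:122340228-122340477, minus strand: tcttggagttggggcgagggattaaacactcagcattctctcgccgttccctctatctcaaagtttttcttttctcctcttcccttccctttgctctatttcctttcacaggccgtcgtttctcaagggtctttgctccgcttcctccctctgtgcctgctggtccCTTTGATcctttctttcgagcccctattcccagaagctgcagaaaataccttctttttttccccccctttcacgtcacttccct
Men1, chr19:6334763-6335012, plus strand: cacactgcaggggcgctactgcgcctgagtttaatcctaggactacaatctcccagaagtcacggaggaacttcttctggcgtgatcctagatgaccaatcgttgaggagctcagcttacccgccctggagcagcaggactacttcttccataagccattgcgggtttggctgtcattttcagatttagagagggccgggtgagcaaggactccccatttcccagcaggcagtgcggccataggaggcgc
Suz12, chr11:79992856-79993105, plus strand: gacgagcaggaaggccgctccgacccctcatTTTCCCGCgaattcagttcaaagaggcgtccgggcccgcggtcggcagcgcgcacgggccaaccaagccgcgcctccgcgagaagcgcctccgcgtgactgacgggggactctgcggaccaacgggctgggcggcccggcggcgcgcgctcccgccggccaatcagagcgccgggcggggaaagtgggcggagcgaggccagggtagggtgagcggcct

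These windows differ in their CpG content. There are 28 CpG pairs in the *Pcgf5* window, 37 in that of *Suz12*, 10 in that of *Men1* and 8 in that of *Phc1*. Over the 53 windows the median was 21, beside 6 over 32851 windows of all genes, and 81.1% of the 53 windows held at least 10 CpG pairs, beside 37.8% of all windows. The TCF/LEF core was found in 1 of the 53 windows (1.89%), the *Phc1* window shown above, beside 3.21% of all windows. The E2F motifs TTTGGCGC and TTTCCCGC and their reverse complements, which did not overlap a TCF/LEF match in these windows, were found in 2 of the 53 windows (3.77%), those of *Suz12* and *Phf19*, beside 1.3% of all windows. A match in these letters is a description of the window and not evidence of binding.

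The largest rise among the 40 genes was that of *Pcgf5*, which encodes a PCGF protein of variant PRC1. PCGF proteins pair with the PRC1 ubiquitin ligases RING1 and RNF2, and each defines a variety of the complex. *Pcgf5* (chromosome 19, 36453557 to 36530682 on mm9, plus strand) had 730, 767 and 944 normalized counts in wild type 1 to 3 and 1596, 1587 and 1381 in mutant 1 to 3. All mutant libraries were well above all wild type libraries, and the mean rose 1.87-fold from 814 ± 114 to 1521 ± 122 (log2 fold change 0.90 with an SE of 0.115, adjusted p = 4.4e-05 by edgeR's quasi-likelihood test). *Pcgf5* was called under every alternative of normalization, filter, length correction and pairing, and without each library in turn, with log2 fold changes from 0.83 to 1.04 in the last of these.

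The most abundant PCGF transcript of the set, *Pcgf6*, had 2584, 2810 and 2951 normalized counts in wild type 1 to 3 and 3331, 3097 and 3267 in mutant 1 to 3. The groups did not overlap, and *Pcgf6* rose by a smaller step (log2 fold change 0.22, SE 0.0773, adjusted p = 0.046). This p lay just inside the 0.05 threshold and was lost without any 1 library other than wild type 3 and under 4 further settings, among them library size as the only scaling (adjusted p = 0.244). *Pcgf1*, *Pcgf2* and *Pcgf3* had log2 fold changes of -0.16, -0.32 and -0.08 with adjusted p of 0.51, 0.18 and 0.72. Of the RPKM summed over the 5 PCGF genes of the set, *Pcgf5* made up 23.8%, 23.3% and 26.3% in wild type 1 to 3 and 37.5%, 38.0% and 33.8% in mutant 1 to 3. Its share was higher in every mutant library. *Bmi1*, also a PCGF gene, is outside the set and was left out of this sum. The shares are thus not those of the whole PCGF family. *Bmi1* averaged 976 normalized counts across the wild type group against 943 for the mutants. Its log2 fold change was -0.05 (adjusted p = 0.80 by edgeR's quasi-likelihood test).

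The ubiquitin ligases of PRC1 differed in level and in precision. *Rnf2*, the abundant one, had 5108, 4922 and 5587 normalized counts in wild type 1 to 3 and 5600, 5623 and 5352 in mutant 1 to 3. Its groups overlapped, and the log2 fold change of 0.09 (adjusted p = 0.39) had a 95% interval of -0.07 to 0.24. The adjusted p of *Rnf2* was 0.0194 with the gene-length correction, 0.0951 when centred and 0.0465 without wild type 3. *Ring1* had 136, 137 and 56.1 normalized counts in wild type 1 to 3 and 42.5, 16.0 and 66.4 in mutant 1 to 3. Wild type 3 lay within the mutant range. *Ring1* fell (log2 fold change -1.40, SE 0.452, adjusted p = 0.03) without meeting the call. It met the call without wild type 3 (adjusted p = 0.0097) and with no filter on low counts (adjusted p = 0.0044). The 0.05 threshold was missed without wild type 1, wild type 2, mutant 1 or mutant 2 and with either gene-length correction.

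In canonical PRC1, CBX proteins read the H3K27 methyl mark and PHC proteins join complexes to one another. Of 7 genes in this group, *Cbx2*, *Phc1* and *Phc2* fell and none rose at an adjusted p under 0.05 (15.1% and 13.6% of all genes). *Cbx2* (chromosome 11, 118884276 to 118892584 on mm9, plus strand) had 463, 472 and 397 normalized counts in wild type 1 to 3 and 297, 207 and 206 in mutant 1 to 3. No mutant library reached the lowest wild type library, and the mean fell from 444 ± 40.8 to 237 ± 52.5, which is 53.3% of wild type (log2 fold change -0.91, SE 0.178, adjusted p = 0.0017). Leaving out wild type 1, mutant 2 or mutant 3 moved its adjusted p to between 0.0102 and 0.0107, just past the threshold of the call.

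*Phc1* (chromosome 6, 122267749 to 122290579 on mm9, minus strand) had 354, 371 and 286 normalized counts in wild type 1 to 3 and 195, 222 and 146 in mutant 1 to 3. The groups did not overlap, and *Phc1* fell to 55.7% of wild type (log2 fold change -0.85, SE 0.195, adjusted p = 0.0048 by edgeR's quasi-likelihood test). It was the called gene closest to the threshold of adjusted p. Its call was lost without wild type 1, wild type 2, mutant 1 or mutant 3 (adjusted p of 0.0248, 0.0263, 0.016 and 0.0261) and with either gene-length correction (0.0354, and 0.0227 when centred), and it stayed under 0.05 in each. The more abundant *Phc2* had 1703, 1715 and 1543 normalized counts in wild type 1 to 3 and 1433, 1194 and 1344 in mutant 1 to 3, again without overlap. *Phc2* fell by less (log2 fold change -0.32, SE 0.0969, adjusted p = 0.022), and with the gene-length correction its log2 fold change was -0.07 (adjusted p = 0.565), or -0.15 when centred (adjusted p = 0.189). It also missed 0.05 without wild type 1, wild type 2, mutant 2 or mutant 3. *Cbx6*, *Cbx7*, *Cbx8* and *Phc3* had log2 fold changes of -0.22, -0.40, 0.30 and 0.28 and adjusted p of 0.56, 0.28, 0.21 and 0.43. The adjusted p of *Cbx8* was 0.0292 with the gene-length correction and 0.0681 when centred. *Cbx6* and *Phc3* had low counts and wide 95% intervals of -0.79 to 0.34 and -0.24 to 0.79. A fall of the size seen for *Phc2* lies inside the interval of *Cbx6* and outside that of *Phc3*.

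**Figure D3:**
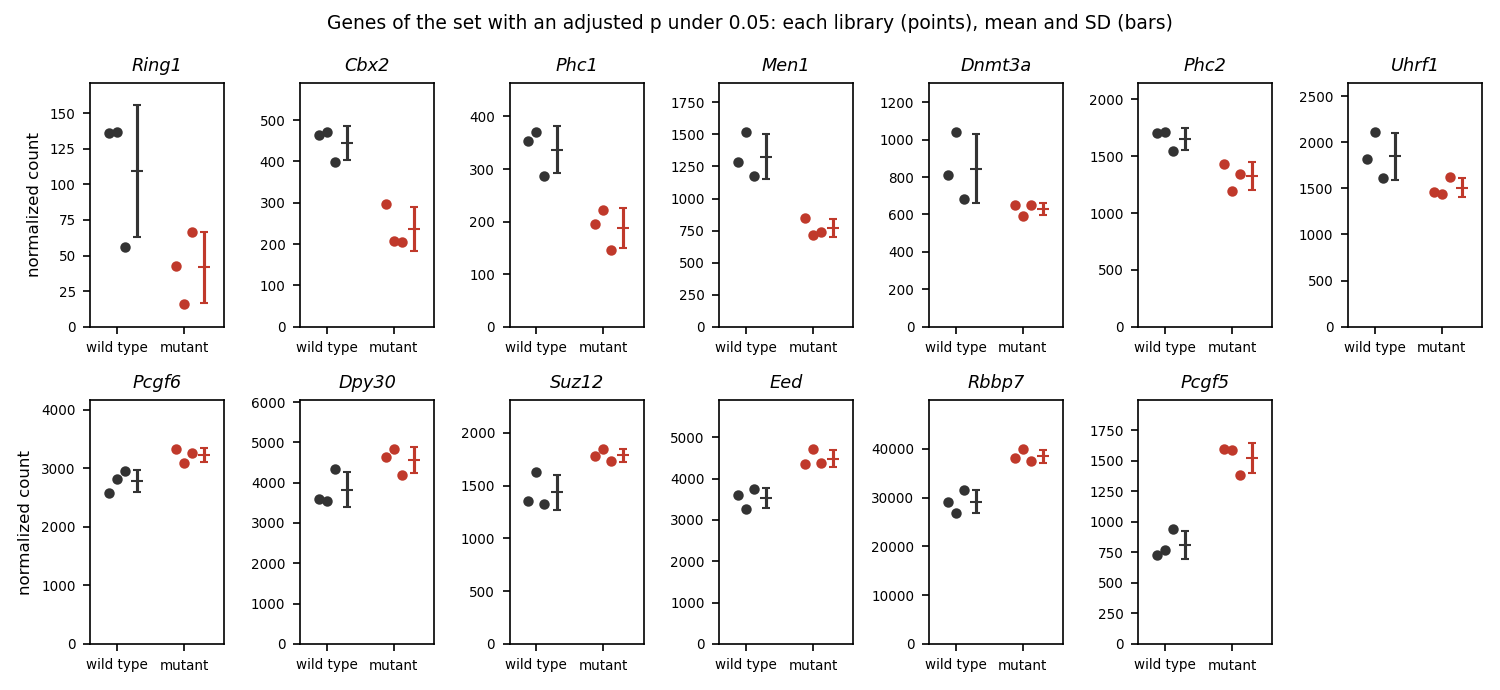
Normalized counts of the 13 genes with an adjusted p under 0.05, 1 panel per gene ordered from the largest fall (*Ring1*) to the largest rise (*Pcgf5*), with a point for each library and bars for mean and SD (n = 3), each axis starting at 0. The points of the groups do not overlap for *Cbx2*, *Phc1*, *Men1* and *Pcgf5*, nor for *Dnmt3a*, *Phc2*, *Pcgf6*, *Suz12*, *Eed* and *Rbbp7*. They overlap for *Ring1*, *Uhrf1* and *Dpy30*.

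Of the 2 variant PRC1 genes beside the PCGF proteins, neither passed. *Kdm2b*, whose product binds unmethylated CpG pairs and brings PRC1 to them, had a log2 fold change of -0.41 (95% interval -0.84 to 0.02, adjusted p = 0.14). *Rybp*, whose product stimulates the ubiquitin ligase, had one of 0.06 (-0.54 to 0.66, adjusted p = 0.89).

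In PRC2, 3 of the 6 core genes rose and none fell at an adjusted p under 0.05, beside 13.6% and 15.1% of all genes, and no core gene met the minimum fold of the call. *Eed*, whose product reads the H3K27 methyl mark and stimulates the enzyme, had 3600, 3262 and 3739 normalized counts in wild type 1 to 3 and 4354, 4718 and 4390 in mutant 1 to 3. *Rbbp7* had 29069, 26829 and 31627 in wild type 1 to 3 and 38040, 39987 and 37505 in mutant 1 to 3. In neither gene did the groups overlap. *Eed* rose 1.27-fold (log2 fold change 0.34, SE 0.0756, adjusted p = 0.0034) and *Rbbp7* rose 1.32-fold (0.40, SE 0.0677, adjusted p = 0.00054), both under the minimum fold of a call. *Rbbp7* is the 1 X-linked gene of the 40. Over 422 X-linked genes tested the median log2 fold change was -0.02 and 12.3% were higher at an adjusted p under 0.05, beside 13.7% of autosomal genes, and the part of sex in the *Rbbp7* result was not tested.

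*Suz12*, which encodes the scaffold of PRC2, had 1353, 1630 and 1330 normalized counts in wild type 1 to 3 and 1781, 1848 and 1730 in mutant 1 to 3. Every mutant library was above the highest wild type library, and *Suz12* rose 1.24-fold (log2 fold change 0.31, SE 0.097, adjusted p = 0.025 by edgeR's quasi-likelihood test). It was called with either gene-length correction (log2 fold change 0.59, and 0.51 when centred), while its adjusted p was 0.14 with library size as the only scaling and missed 0.05 without wild type 1 or any 1 mutant library.

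The gene of the main catalytic subunit, *Ezh2*, did not pass. It had 3078, 2809 and 2942 normalized counts in wild type 1 to 3 and 3228, 2872 and 2874 in mutant 1 to 3. The groups overlapped almost fully, and the log2 fold change was 0.02 with a 95% interval of -0.14 to 0.19 (adjusted p = 0.85). Its less abundant paralogue *Ezh1* had 454, 338 and 202 normalized counts in wild type 1 to 3 and 248, 218 and 237 in mutant 1 to 3. Wild type 3 was below all mutant libraries. The log2 fold change of *Ezh1* was -0.50 (SE 0.234, adjusted p = 0.12), and without wild type 3 it was -0.74 (adjusted p = 0.007) and met the call. *Rbbp4*, which encodes the paralogue of RBBP7, had a log2 fold change of -0.10 (adjusted p = 0.34), which was 0.18 with the gene-length correction. With library size as the only scaling it was -0.20 (adjusted p = 0.0349).

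None of the 4 genes of PRC2 accessory subunits passed. *Jarid2*, whose product helps to bring PRC2 to DNA, had higher counts in every mutant library (459, 505 and 427, beside 322, 399 and 395 in wild type), with a log2 fold change of 0.32 (adjusted p = 0.12). The adjusted p of *Jarid2* was 0.0257 with the gene-length correction and 0.0641 when centred. *Mtf2*, which encodes the abundant Polycomb-like protein here, had a log2 fold change of 0.00 with a 95% interval of -0.17 to 0.17 (adjusted p = 1). Its relatives *Phf1* and *Phf19* had between 11.1 and 70.3 normalized counts in any library, and their intervals (-1.52 to 1.04 and -0.65 to 1.10) cover large changes in either direction.

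The H3K27 demethylase gene *Kdm6b*, whose product removes the mark that PRC2 places, had 114, 158 and 166 normalized counts in wild type 1 to 3 and 177, 192 and 121 in mutant 1 to 3. The groups overlapped (log2 fold change 0.16, adjusted p = 0.66).

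Among 6 trithorax and COMPASS genes, 1 (*Men1*) fell and 1 (*Dpy30*) rose at an adjusted p under 0.05, beside 15.1% and 13.6% of all genes. *Men1* encodes menin, which carries MLL-type methyltransferases to chromatin. *Men1* (chromosome 19, 6334979 to 6340891 on mm9, plus strand) had 1284, 1521 and 1178 normalized counts in wild type 1 to 3 and 851, 715 and 740 in mutant 1 to 3. The highest mutant library stayed below the lowest wild type library, and the mean fell from 1328 ± 176 to 769 ± 72.6, which is 57.9% of wild type (log2 fold change -0.79, SE 0.119, adjusted p = 0.0002 by edgeR's quasi-likelihood test). *Men1* was called under every alternative of normalization, filter, length correction and pairing and without each library in turn, with log2 fold changes from -0.87 to -0.68 in the last of these.

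*Dpy30* had 3603, 3549 and 4331 normalized counts in wild type 1 to 3 and 4637, 4836 and 4197 in mutant 1 to 3. Wild type 3 was above mutant 3, so the groups overlapped. *Dpy30* rose 1.19-fold (log2 fold change 0.25, SE 0.0869, adjusted p = 0.04). With the centred gene-length correction its log2 fold change was 0.02 (adjusted p = 0.875), and its p was also lost when libraries were scaled by size only (0.16), with the replicate block (0.069) and without wild type 1, wild type 2, mutant 1 or mutant 2. The methyltransferase gene *Ash1l* had 476, 613 and 404 normalized counts in wild type 1 to 3 and 420, 445 and 561 in mutant 1 to 3, with overlapping groups (log2 fold change -0.07, adjusted p = 0.80). *Wdr5*, *Rbbp5* and *Ash2l*, which encode the shared core of the COMPASS complexes, had log2 fold changes of -0.02, -0.22 and 0.14 and adjusted p of 0.91, 0.21 and 0.13. Of these genes, *Ash2l* was higher in every mutant library than in any wild type library. Correcting for length brought *Ash2l* to 0.35 (adjusted p = 0.0042 by edgeR's quasi-likelihood test). Centring this correction left it at 0.26 (adjusted p = 0.021). Both values lay under the minimum fold of a call, and *Ash2l* passed 0.05 in no other fit. The interval of *Wdr5*, from -0.21 to 0.18, was narrow beside the fall of *Men1*.

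All 4 DNA methylation genes and all 3 TET genes had a negative log2 fold change, and 2 of these 7, *Dnmt3a* and *Uhrf1*, fell at an adjusted p under 0.05. Over all genes tested, 54.29% had a negative value and 15.1% fell at this threshold. With either gene-length correction neither passed, and the value of *Dnmt3b* turned positive (0.11, and 0.03 when centred). *Dnmt3a*, which encodes a methyltransferase that sets new methylation, had 812, 1042 and 682 normalized counts in wild type 1 to 3 and 648, 594 and 650 in mutant 1 to 3. The groups did not overlap, although wild type 3 came close to the mutant libraries. Its log2 fold change was -0.42 (SE 0.144, adjusted p = 0.038), and without wild type 3 it was -0.54 (adjusted p = 0.0063) and met the call. Its adjusted p missed 0.05 without any 1 of the other 5 libraries and with the replicate block (0.056).

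The other methyltransferase of new sites, *Dnmt3b*, had 314, 302 and 270 normalized counts in wild type 1 to 3 and 277, 301 and 212 in mutant 1 to 3. The groups overlapped (log2 fold change -0.16, 95% interval -0.54 to 0.22, adjusted p = 0.53). *Dnmt1*, the maintenance methyltransferase that copies methylation after replication, had 1523, 1409 and 895 normalized counts in wild type 1 to 3 and 970, 995 and 1034 in mutant 1 to 3. Wild type 1 and 2 were above all mutant libraries and wild type 3 was below them. The log2 fold change of *Dnmt1* was -0.35 (SE 0.151, adjusted p = 0.091), and without wild type 3 it was -0.54 (adjusted p = 0.00079) and met the call. With no filter on low counts the adjusted p of *Dnmt1* was 0.037. *Uhrf1*, whose product guides DNMT1 to replicated DNA, had 1821, 2113 and 1609 normalized counts in wild type 1 to 3 and 1457, 1436 and 1626 in mutant 1 to 3. Mutant 3 was just above wild type 3. The fall of *Uhrf1* (log2 fold change -0.30, SE 0.104, adjusted p = 0.045) lay just inside the threshold and was lost with DESeq2, with the RLE scaling, with the replicate block (adjusted p = 0.0766) and without any 1 library other than wild type 3.

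The TET genes were present at low levels. *Tet1* had 151, 203 and 147 normalized counts in wild type 1 to 3 and 125, 85.2 and 117 in mutant 1 to 3. Its groups did not overlap, with a log2 fold change of -0.61 (SE 0.243, adjusted p = 0.07) that missed the threshold. With library size as the only scaling the adjusted p of *Tet1* was 0.0444. *Tet3* had 420, 481 and 327 normalized counts in wild type 1 to 3 and 246, 335 and 324 in mutant 1 to 3. Its groups overlapped by wild type 3 and mutant 2 (log2 fold change -0.44, SE 0.181, adjusted p = 0.08), and without wild type 3 the adjusted p was 0.0239. It was 0.0459 with library size as the only scaling. *Tet2* had 190, 159 and 130 normalized counts in wild type 1 to 3 and 143, 162 and 113 in mutant 1 to 3, which overlapped (log2 fold change -0.20, 95% interval -0.69 to 0.30, adjusted p = 0.57).

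Transcript length moved with the fold change over all genes. With the genes divided into 4 length classes of about equal size, the median log2 fold change was 0.14 in the class with the shortest transcripts (up to 1983 bases), and in the other classes, from short to long, it was -0.02, -0.16 and -0.15. Of the 40 genes, 3, 10, 14 and 13 belonged to these classes. The third class, which holds *Cbx2* (3807 bases) and *Phc1* (4213 bases), had 21.8% of its genes lower at an adjusted p under 0.05, and the first, which holds *Pcgf5* (1626 bases) and *Dpy30* (799 bases), had 25.7% of its genes higher. After a gene-length correction centred on 0, 6 of the 40 genes were higher and 3 lower at the 0.05 threshold, beside 14.4% and 11.4% of all genes, and their median log2 fold change was 0.00, beside 0.00 over all genes. The correction without centring, which moved the median of all genes by 0.13, gave 9 higher and 3 lower, beside 21.9% and 8.96% of all genes. *Pcgf5*, *Cbx2* and *Men1* met the call under both corrections.

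**Figure D4:**
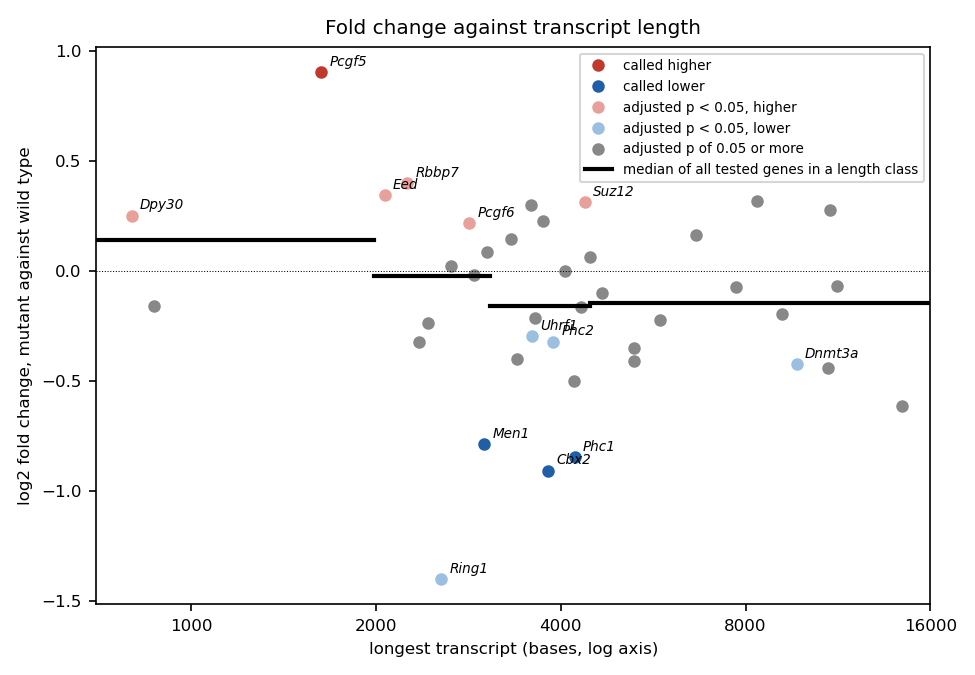
Log2 fold change of the 40 genes against the length of the longest transcript on a log axis, with black lines for the median of all tested genes in each of 4 length classes (0.14, -0.02, -0.16 and -0.15). *Pcgf5* lies far above and *Cbx2*, *Phc1* and *Men1* far below the line of their class.

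The direction of small changes also depended on the scaling. Over all genes, 32.3% of calls were higher in the mutant, against 17.3% with library size as the only scaling, which moved the median of all genes by -0.11, and 65.3% with the gene-length correction or 45.6% when centred. With library size only, 3 of the 40 genes rose and 10 fell by the 0.05 threshold, beside 8.05% and 20.5% of all genes, and *Ezh2*, *Rnf2* and *Rybp* turned negative (-0.08, -0.02 and -0.04). *Pcgf5*, *Cbx2*, *Phc1* and *Men1* met the call under this scaling as well.

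Further genes of the same complexes came from a list of 45 names, of which 40 were in the count tables and 37 were tested. Of these, 1 was called higher and 1 lower (2.78% and 5.83% of all genes), and by the 0.05 threshold 2 rose and 5 fell (13.6% and 15.1% of all genes). *E130012A19Rik*, known as *Epop* in RefSeq and encoding a PRC2-associated protein, had 197, 245 and 169 normalized counts in wild type 1 to 3 and 111, 49.0 and 106 in mutant 1 to 3. It fell without overlap (log2 fold change -1.20, SE 0.287, adjusted p = 0.0059), and the call was lost without wild type 1, wild type 2 or mutant 2 and with either gene-length correction. *Kdm6a*, an X-linked gene for an H3K27 demethylase that is known to escape X inactivation, had 504, 541 and 412 normalized counts in wild type 1 to 3 and 674, 809 and 655 in mutant 1 to 3. It rose without overlap (log2 fold change 0.55, SE 0.141, adjusted p = 0.0085), and the call was lost when any 1 library was left out and with library size as the only scaling. Its Y-linked counterpart *Uty* had 775, 804 and 809 reads in wild type 1 to 3 and 0 in each mutant library, and the part of sex in the *Kdm6a* result was not tested.

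Genes that peak with DNA replication or division were examined beside *Uhrf1*, *Dnmt1* and *Ezh2*, whose transcripts are known to follow the cell cycle. Of 18 such genes tested, 5 rose and 3 fell by the 0.05 threshold (13.6% and 15.1% of all genes), with a median log2 fold change of 0.00. *Top2a* was called higher (log2 fold change 0.52, adjusted p = 0.00023) and *Mcm2* lower (-0.52, adjusted p = 0.0032). In bulk samples, fewer cells of a type and less RNA per cell cannot be told apart.

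Near-identical copies elsewhere in the mm9 genome (95% identity or more along 50% or more of the transcript) were found for *Pcgf1*, *Rybp*, *Rbbp5*, *Rbbp7* and *Uhrf1*, 1 each, covering between 71.9% and 99.9% of the transcript. Counts of uniquely mapping reads are uncertain for these genes, including the rise of *Rbbp7* and the fall of *Uhrf1*. Exons of *Rbbp4* overlapped genes on the opposite strand over 18% of their length and those of *Cbx6* a gene on the same strand over 18.7%. No copy or exon overlap was found for *Pcgf5*, *Cbx2*, *Phc1* or *Men1*.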

How the data were processed

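RNA-sequencing counts of 6 libraries were used. cDNA was made with a SMARTer kit over 15 PCR cycles. Per the labels and the study's methods, the authors mapped reads with STAR 2.5.2b to mm9, used featureCounts 1.5.1 to count the uniquely mapping reads of each gene and deposited these raw read counts without normalization. Whether strand was used in counting is not given in the sources used here. Total counts lay between 18216537 and 20397278. The samples carry no culture or litter identifiers, so p-values measure the spread between these libraries. Reads carry no molecular identifiers.

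Counts were analysed with edgeR 4.0.16 in R 4.3.3 (TMM normalization, filterByExpr, quasi-likelihood test on genotype, Benjamini-Hochberg adjustment over all genes tested). The study's criteria of fold and FDR were used with a mean normalized count of at least 50 in place of its RPKM minimum of 50, which was an alternative. Other alternatives were DESeq2 1.42.0, RLE scaling, library size only, other filters and thresholds, a loess correction for length (span 0.5), a replicate block and leaving out each library. The samples did not pair by replicate number. Positions and transcript lengths came from GENCODE on mm9, copies from BLAST+ 2.17.0, and figures from matplotlib 3.10.9 in Python 3.11.15. Every gene of the set is accounted for, with values per library for genes with an adjusted p under 0.05, for the enzymes and for *Uhrf1*. Among other chromatin genes those called are named, and so is *Bmi1*. The genes and lists were chosen with earlier results of these data known.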

Additional observations from a re-analysis of the deposited data

How the results depend on the processing

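Calls of *Pcgf5* and *Men1* held under every alternative fit. The number of the 40 genes called higher (1) was 2 with either gene-length correction, beside 5.86% of all genes, or 3.38% when centred. It was 1 without each library, beside 2.04% to 4.04% of all genes. It was 0 with a minimum log2 change of 1, 3 with no minimum fold and 0 at an RPKM of at least 50. The number called lower (3) was 4 with no filter on low counts, beside 5.23% of all genes. It was 2 with either gene-length correction, beside 3.11% of all genes, or 4.02% when centred. It was 0 with a minimum log2 change of 1 and at an RPKM of at least 50. Shares of all genes at these other thresholds are not given here. When 1 library was left out, 1 to 7 were called lower, beside 3.18% to 6.79% of all genes. Genes higher at an adjusted p under 0.05 (6) numbered 3 with library size only, beside 8.05% of all genes. Without 1 library they numbered 3 to 7, beside 8.16% to 18.3%. Genes lower (7) numbered 3 with either length correction, beside 8.96% of all genes, or 11.4% when centred. Without 1 library they numbered 3 to 10, beside 9.24% to 16.8%. Of the other chromatin genes, the 1 called higher became 0 with library size only (1.6% of all genes) and 0 without each library. The 1 called lower became 0 with either length correction (3.11% of all genes, 4.02% when centred) and 0 to 1 without 1 library. The replicate numbers did not pair the samples (deviations of same-numbered libraries correlated at 0.0097, -0.045 and -0.018). With a replicate block 4 of the 40 genes rose and 5 fell by the 0.05 threshold, beside 11.2% and 13.6% of all genes. Log2 fold changes that turned sign belonged to genes with an adjusted p of 0.05 or more in the main fit. Among them, *Rnf2* passed 0.05 with the uncentred length correction and without wild type 3, and *Rbbp4* with library size only. With library size only the genes that turned sign were *Ezh2* (-0.081), *Rnf2* (-0.018) and *Rybp* (-0.043). With the length correction they were *Mtf2* (0.26), *Rbbp4* (0.18), *Cbx6* (0.026), *Pcgf3* (0.12), *Ash1l* (0.073), *Wdr5* (0.16), *Rbbp5* (0.022) and *Dnmt3b* (0.11), and when centred *Mtf2* (0.18), *Rbbp4* (0.092), *Pcgf3* (0.036), *Wdr5* (0.078) and *Dnmt3b* (0.031). With DESeq2 and RLE scaling *Mtf2* was at 0.022 and 0.020 and *Wdr5* at 0.0055 and 0.0043, and *Mtf2* was at 0.0010 with no filter and 0.0013 with the replicate block. Without 1 library the ranges were -0.033 to 0.057 for *Ezh2*, -0.040 to 0.081 for *Mtf2*, -0.65 to 0.12 for *Phf1*, -0.051 to 0.50 for *Phf19*, -0.38 to 0.078 for *Cbx6*, -0.14 to 0.050 for *Pcgf3*, -0.094 to 0.22 for *Rybp*, -0.20 to 0.11 for *Ash1l*, -0.054 to 0.022 for *Wdr5* and -0.079 to 0.61 for the difference in the log2 ratio of *Mtf2* to *Phf1*. The cause of these shifts was not tested. Low counts leave wide 95% intervals for *Phf1*, *Phf19* and *Ring1*.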

Other observations

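Genes that Polycomb or DNA methylation are known to keep silent in somatic cells gave few reads in either genotype. Of 16 such genes, 14 had at most 50 reads in every library and 3 (*Tex101*, *Hormad1* and *Stra8*) had none. Only 3 of the 16 passed the filter and were tested, beside 12501 of the 23366 genes in the count tables. Of these 3, 0 were higher and 1 was lower at an adjusted p under 0.05, beside 13.6% and 15.1% of all genes tested. With 3 genes, these counts cannot be told apart from the shares of all genes. *Cdkn2b*, which encodes a cell cycle inhibitor known as a Polycomb target, had 526, 596 and 538 raw counts in wild type 1 to 3 and 349, 305 and 321 in mutant 1 to 3. It fell without overlap between the groups (log2 fold change -0.58, SE 0.14, adjusted p = 0.006 by edgeR's quasi-likelihood test). *Zfp42*, a gene of pluripotent cells, had 122, 121 and 122 raw counts in wild type 1 to 3 and 66, 76 and 93 in mutant 1 to 3, with a log2 fold change of -0.45 and an adjusted p of 0.23. *Sycp3*, a gene of meiosis, ranged from 19 to 42 raw counts in the wild type and 27 to 36 in the mutant group (adjusted p = 0.55).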
